A study of Mus musculus with 6 samples.

Results

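The glypicans (Gpc1 to Gpc6) and the syndecans (Sdc1 to Sdc4) are the main families of cell-surface heparan sulfate proteoglycans. Their 10 genes were found by gene name among the non-control probes of the arrays, where 17 probes carry them, out of 27670 gene names in all. The family was chosen with values of this same contrast known, because Gpc4 was among the largest falls, so the differences of the 10 genes are given as a description, without a test. The fit covered all measured genes, and adjusted p-values are given for genes outside the family only, namely those of lists of heparan sulfate enzymes, partners and ligands, markers of cell types and neighbours in the genome.

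The arrays compared 2 populations of the 4T1.2 line, which comes from a mammary tumour of BALB/c mice and spreads to bone. The base-vector cells (BV, 3 arrays) carried the empty pMSCV retroviral vector, and the IRF7 cells (3 arrays) carried the same vector with Irf7, which encodes an activator of type I interferon transcription. Both populations were selected with puromycin, were pools of several single-cell clones and were grown in the same medium (α-MEM with 5% FCS). The design text gives 3 independent experiments. Each group is nevertheless 1 pooled population, so the spread between arrays does not include a spread between separately made cell populations.

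On each array 54.3 to 59.7% of the probe spots were well above background, and the processed signal had a 75th percentile between 1099.7 and 1395. BV replicate 1 and all 3 IRF7 arrays shared slide 1, while BV replicates 2 and 3 were on slide 2. The introduced gene read as labelled, with Irf7 signals of 195 to 246 in the BV cells and 4486 to 5012 in the IRF7 cells. Of the 10 epithelial markers examined, 7 were above background on at least 1 BV array and 8 on at least 1 IRF7 array, among them Krt8, Krt18, Cdh1 and Epcam. Esrp1 was so on 1 IRF7 array only, and Krt19 and Cldn4 were above background on no array.

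Glypicans are held at the outer face of the membrane by a glycosylphosphatidylinositol anchor, and syndecans cross the membrane and bind cytoplasmic adaptors through a short tail. Both carry long heparan sulfate chains, whose pattern of sulfate groups decides which growth factors, Wnt proteins, Hedgehog proteins and chemokines are captured at the cell surface. The chains are built in the Golgi, trimmed of sulfate outside the cell by the sulfatases Sulf1 and Sulf2, and broken down in lysosomes. The core proteins can be released by proteases, and glypicans also by lipases that cut the anchor.

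The probes that carry the findings are shown by the first 30 of their 60 bases, 5′ to 3′. They mark which stretch of each transcript was read, since several members have probes that did not read alike. Positions are those of the array files, on mouse build mm7. The files do not say whether a probe lies in an exon or an untranslated region, and this was not annotated here. Capitals are not used because no base within a probe is singled out.
Gpc4 (A_51_P252725): tgttctgcgtggctagcagtgtaggtacag
Gpc4 (A_52_P480532): ttcctttttagcttagactgctattacttt
Sdc1 (A_52_P479269): atctgtatggtgccccatttttggcggccc
Sdc2 (A_51_P157255): taatggccttaattcatacctttctgtcca
Sdc2 (A_51_P292403): aaagctcccatttagtgtctctatttagga
Sdc3 (A_52_P485142): atctgccccagactgtgtccttatgacccc
Sdc4 (A_51_P323248): tggaagtcattcctcggttgcactagccac
Sdc4 (A_52_P93467): ttgttccaaatttccagaatagaatatagg

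The Gpc4 probes lie on the minus strand at chrX:47145463-47145522 and chrX:47143404-47143463, 2059 bases apart from start to start, and share no base. The Sdc1 probe is at chr12:8818810-8818869 (plus strand). The Sdc2 probes are at chr15:33143072-33143131 and chr15:33141162-33141221 (plus strand). The Sdc3 probe shown is at chr4:130037404-130037463 (plus strand), and the Sdc4 probes are at chr2:164165270-164165329 and chr2:164166365-164166424 (minus strand).

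Gpc4 stood far from the other members. It was high in every BV array and low in every IRF7 array, with both of its probes about equally far apart between the groups. Sdc1, Sdc2 and Sdc3 were moderately higher in the IRF7 cells, Sdc4 was slightly lower by 1 of its probes, and Gpc1 overlapped between the groups. Gpc6 was too uneven between arrays for a direction. Gpc2, Gpc3 and Gpc5 were above background on no array, and so had no measured level in either group.

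The 17 probes fell into 3 sets. A set of 9 probes, for 6 genes (Gpc1, Gpc4, Sdc1, Sdc2, Sdc3 and Sdc4), was well above background on all 6 arrays. A single probe, for Gpc6, was above background on some arrays. The remaining 7 probes were above background on no array, with signals of 6.03 to 12.5, and values at this level have no order.

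**Figure D1:**
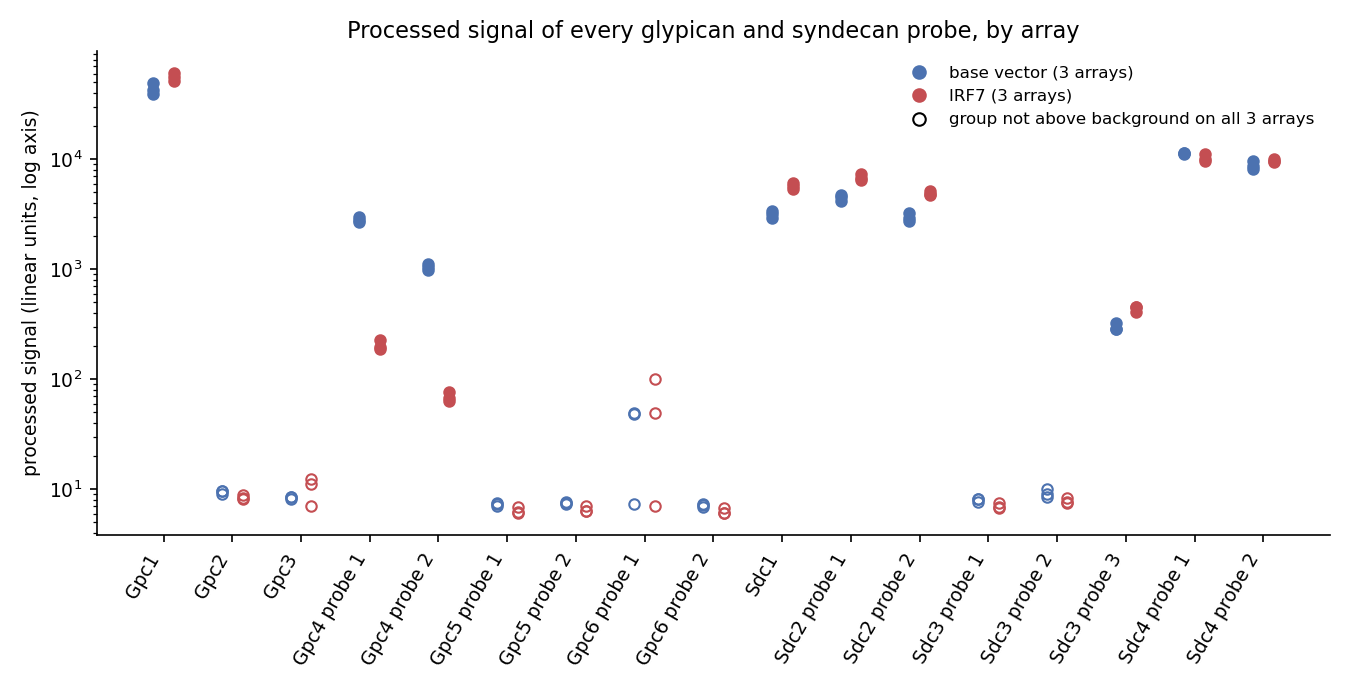
Processed signal of every glypican and syndecan probe (linear units on a log axis), with 1 point per array, base vector in blue and IRF7 in red; open points belong to a group that was not above background on all 3 arrays. Both Gpc4 probes sit far lower in the IRF7 arrays, and 7 probes lie at the bottom of the scale, between 6.03 and 12.5; heights of different probes are not comparable.

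Gpc4 is a glypican that can act as a co-receptor for fibroblast growth factors and Wnt proteins. Its main probe read 2987, 2681 and 2820.1 in the BV arrays and 195, 189.6 and 225 in the IRF7 arrays. The lowest BV value was thus far above the highest IRF7 value, and the arrays within each group lay close together. As log2 levels relative to the 75th percentile of each array, the means were 1.29 ± 0.03 (SD, n = 3) in the BV cells and -2.70 ± 0.10 (SD, n = 3) in the IRF7 cells. The log2 difference, IRF7 minus BV, was -4.00 (SE 0.055), a level 16.0-fold lower in the IRF7 cells. The transcript was still well above background on all 3 IRF7 arrays, so it was reduced rather than lost to the array.

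The second Gpc4 probe, which shares no sequence with the first, read 1109.8, 994 and 1037 in the BV arrays and 62.9, 67.9 and 76.0 in the IRF7 arrays. Its groups did not overlap either. Its log2 difference was -4.12 (SE 0.039), 17.4-fold lower in the IRF7 cells. With normexp background correction, which raises dim values, the differences of the first and second probe were -3.65 and -3.17.

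These are bulk RNA values, in which fewer cells expressing a gene and less RNA per cell cannot be told apart. Some fibroblast markers were lower in the IRF7 cells, as Gpc4 was. Of 7 such markers, 5 were above background on at least 1 BV array and 2 on at least 1 IRF7 array. Their summed signal was 6541 to 7404 in the BV arrays and 3219 to 3671 in the IRF7 arrays, nearly all of it from Pdgfra, which read 6268 to 7128 and 3108 to 3554. Pdgfra, the platelet-derived growth factor receptor alpha, fell by 1.21 on the log2 scale (limma adjusted p = 3.12e-06), while Pdgfrb and Dcn (decorin) were at least 2.84-fold and 3.1-fold lower, being below background in the IRF7 cells. The collagen Col1a2 had the other sign, at 0.31, and did not pass the test (limma adjusted p = 0.229). The collagen Col1a1 and Lum (lumican), also among these markers, were above background on no array of either group. The part of these markers in the Gpc4 difference was not tested.

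Among the other glypicans, Gpc1, a glypican found in many carcinomas, read 48876, 38863 and 42909 in the BV arrays and 55875, 51640 and 60938 in the IRF7 arrays. After scaling the groups overlapped, and the log2 difference was 0.17 (SE 0.074), against group SDs of 0.08 and 0.12 (n = 3 each). Gpc6 read 48.4, 7.34 and 49.0 in the BV arrays and 7.07, 100.6 and 49.8 in the IRF7 arrays. A single array of each group was at the floor, and the group SDs of 1.52 and 1.91 exceeded the log2 difference of 0.14 (SE 1.19). This difference ranged from -0.73 to 1.2 as each array was left out in turn (1.2 without IRF7 replicate 1), so no direction can be read for Gpc6. Its other probe was above background on no array.

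Gpc3, an X-linked glypican known as an oncofetal antigen of the liver, read 8.59, 8.18 and 8.59 in the BV arrays and 12.5, 7.10 and 11.2 in the IRF7 arrays, all below the detection call. Gpc2, typical of the developing nervous system, read between 8.12 and 9.74. Both Gpc5 probes read between 6.12 and 7.65. For these 3 genes the arrays set no level and no fold.

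The syndecans were all measured. Sdc1 (CD138), the main syndecan of epithelial cells and a plasma cell marker, read 3359, 2892 and 3162 in the BV arrays and 5411, 5733 and 6116 in the IRF7 arrays. All IRF7 arrays were above all BV arrays. The means were 1.44 ± 0.05 and 2.12 ± 0.02 (SD, n = 3 each), a log2 difference of 0.68 (SE 0.034), or 1.60-fold higher in the IRF7 cells. Of the 5 markers of plasma cells and B cells, 4 were above background on no array of either group, among them Jchain and Mzb1.

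Sdc2, a syndecan of mesenchymal cells that is also found in carcinoma lines, read 4697, 4125 and 4551 in the BV arrays and 6493, 6788 and 7265 in the IRF7 arrays. The groups did not overlap, and the log2 difference was 0.42 (SE 0.039), or 1.34-fold higher in the IRF7 cells. A second probe read 3232, 2750.3 and 2942 against 4763, 4852 and 5089.9, a difference of 0.53 (SE 0.038) in the same direction. The Sdc2 probes therefore gave the same order of the groups from different stretches of the transcript.

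Sdc3 is known mainly from nerve and muscle. Its detected probe read 326, 286 and 284 in the BV arrays and 409, 454 and 450.0 in the IRF7 arrays. The groups did not overlap, and the log2 difference was 0.36 (SE 0.034), or 1.28-fold higher in the IRF7 cells. The other 2 Sdc3 probes, of which 1 has no position in the files, were above background on no array, so the difference rests on 1 probe.

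Sdc4, the syndecan of focal adhesions, was the only syndecan whose difference had the opposite sign. Its brighter probe read 11408, 11029 and 11325 in the BV arrays and 9658, 9976 and 11152 in the IRF7 arrays. The highest IRF7 signal lay within the BV signals before scaling, and the groups did not overlap after scaling (means 3.29 ± 0.07 and 2.95 ± 0.05, SD, n = 3 each). The log2 difference was -0.33 (SE 0.048), or 1.26-fold lower in the IRF7 cells. The second Sdc4 probe read 9598, 8128 and 8697 against 9546, 9494 and 10084, with overlapping groups and a difference of -0.05 (SE 0.044). The Sdc4 probes thus disagree in size, and without scaling between arrays the brighter probe was at -0.14.

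In the fit across all 15414 genes tested, 61.2% passed an adjusted p of 0.05 (limma, Benjamini-Hochberg), and 6.14% differed at least 2-fold. Of the 7 members with a tested level, 5 passed (Gpc4 and all 4 syndecans) and 1 (Gpc4) differed at least 2-fold. Since the family was chosen on this contrast and most genes pass, nothing is read from these counts. The median log2 difference of all genes was 0.03, and without scaling between arrays it was 0.23. Under every scaling tried, the signs of Gpc1, Gpc4, Sdc1, Sdc2, Sdc3 and Sdc4 stayed as given.

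Slide 1 alone holds both groups, with 1 BV array against 3 IRF7 arrays. Within it the log2 differences were -3.98 for Gpc4, 0.68 for Sdc1, 0.45 for Sdc2, 0.33 for Sdc3, -0.25 for Sdc4, 0.10 for Gpc1 and -0.66 for Gpc6. A fit with slide as a fixed block gives the same differences, since slide 2 holds BV arrays only. Apart from Gpc6, each sign was that of all 6 arrays.

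**Figure D2:**
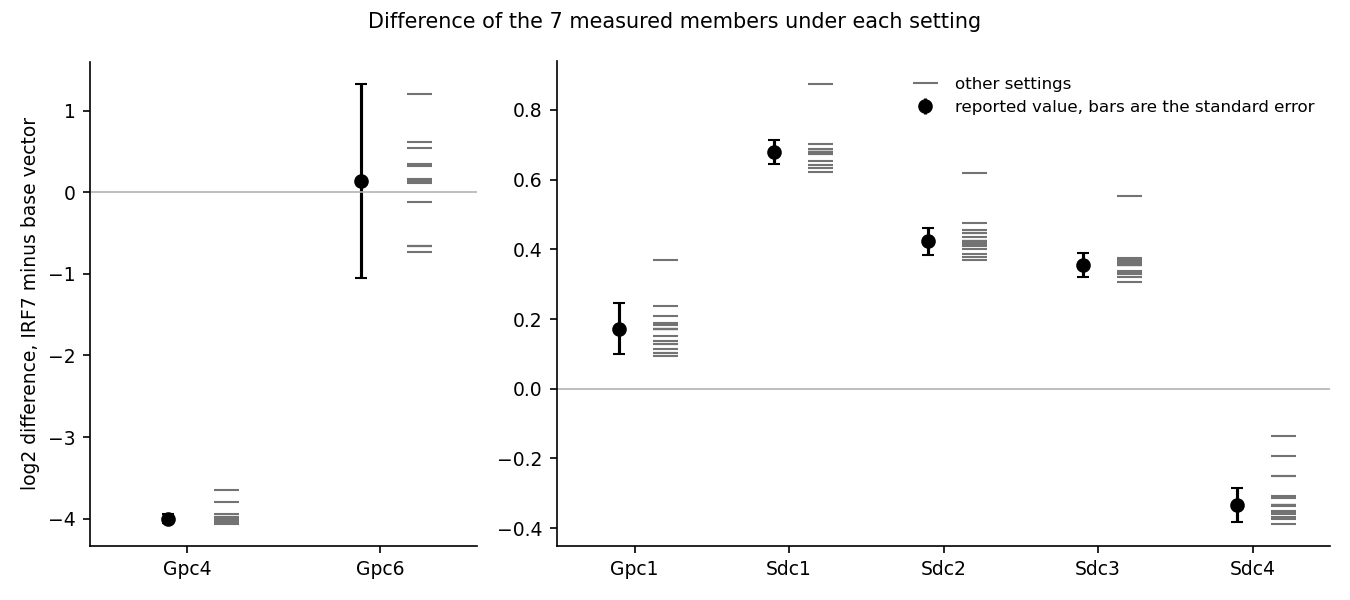
Log2 difference, IRF7 minus base vector, of the 7 members with a tested level; black points are the reported values with their standard errors, and grey dashes are the values under the other processing settings. Gpc4 stays between -4.06 and -3.65, Sdc1 between 0.62 and 0.88, and Gpc6 crosses 0; the left and right panels have different vertical scales.

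The question of what else of the heparan sulfate system differed was put to 6 gene lists, counted in the same fit, where 61.2% of all genes were called and the median log2 difference was 0.03. The largest change in these lists was a rise of Sulf2, an extracellular sulfatase that removes sulfate from finished heparan sulfate chains. Its main probe read 75.8, 68.1 and 60.2 in the BV arrays and 1212, 1304 and 1404 in the IRF7 arrays. No IRF7 array came near the BV range. The rise was 4.07 on the log2 scale (SE 0.063, limma adjusted p = 8.03e-07), or 16.8-fold, and 4.01 within slide 1. A second probe, which overlaps the first by 40 bases and is thus no separate stretch, differed by 4.22. With this scaling Gpc4 and Sulf2 differed by about the same factor in opposite directions. The match was looser with normexp, at -3.65 for Gpc4 and 3.15 for Sulf2, and without scaling between arrays, at -3.80 and 4.27. The other sulfatase of this kind, Sulf1, was above background on 1 IRF7 array and was not tested.

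Apart from Sulf2, no tested gene of the list of heparan sulfate editing and breakdown differed 2-fold. Of the list's 10 tested genes (of 12 listed, 11 on the array), Sulf2 included, 2 rose, 3 fell and 5 did not pass. The median difference was -0.05. The lysosomal enzymes Idua (alpha-L-iduronidase), Ids (iduronate 2-sulfatase) and Naglu (alpha-N-acetylglucosaminidase) fell by 0.60 (SE 0.064, limma adjusted p = 0.000516), 0.40 (SE 0.028, adjusted p = 9.93e-05) and 0.29 (SE 0.032, adjusted p = 0.000598). Arsg, a lysosomal sulfatase, was 0.22 higher (limma adjusted p = 0.0359). The Arsg call was lost under 12 of 18 alternatives, among them quantile normalization, median centring and slide 1 alone, where the difference was 0.09. Without scaling between arrays Ids was at -0.21 and Naglu at -0.09, and neither was called. The second Ids probe, much dimmer, differed by -0.01, and with the mean of both probes Ids was no longer called. Heparanase (Hpse), which cuts the chains, was at -0.35 and did not pass.

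**Figure D3:**
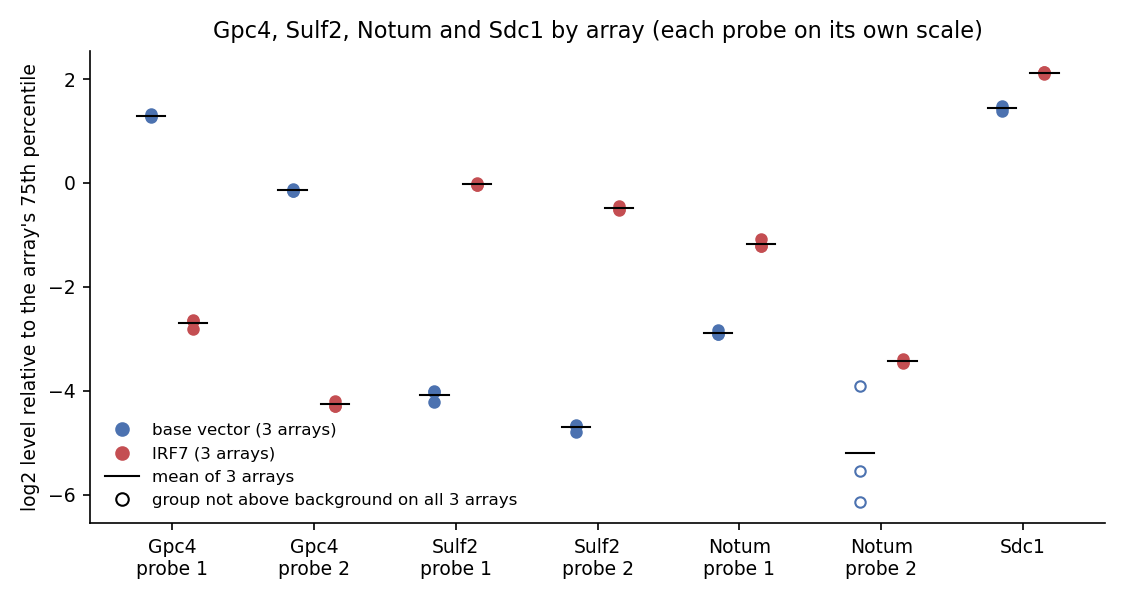
Log2 level relative to the 75th percentile of each array for Gpc4, Sulf2, Notum and Sdc1, with 1 point per array, base vector in blue, IRF7 in red and a line at each mean of 3 arrays; open points belong to a group not above background on all 3 arrays. The arrays of a group lie close together except for the second Notum probe in the base-vector cells, and each probe has its own scale.

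Of the list of heparan sulfate synthesis, 18 of 28 genes were tested, of which 9 rose, 2 fell and 7 did not pass, with a median of 0.14. The rises were small. Hs6st1, a 6-O-sulfotransferase that adds the sulfates Sulf2 removes, rose by 0.55 (SE 0.055, limma adjusted p = 0.00041). Fam20b, the xylose kinase of the linkage region, rose by 0.54 (SE 0.053, adjusted p = 0.000374). B4galt7, which adds the first galactose of the linkage region, rose by 0.44 (SE 0.036, adjusted p = 0.000168). Xylt2, a xylosyltransferase that starts the chain, fell by 0.37 (SE 0.034, limma adjusted p = 0.000275), but was at -0.17 and no longer called without scaling between arrays. The N-deacetylase/N-sulfotransferase Ndst3, counted among the rises, read 41.5, 29.3 and 27.0 in the BV arrays and 71.4, 89.6 and 75.9 in the IRF7 arrays. It was above background on 1 of the 3 BV arrays and passed the filter through the IRF7 group, so its difference of 1.10 (SE 0.145, limma adjusted p = 0.00124) rests on BV values near the floor. With normexp it was 0.48. The chain polymerase subunits went opposite ways, with Ext1 at 0.35 and Ext2 at -0.33. These and Hs2st1 (0.03) and Glce (-0.01) were chosen for naming after their values were seen. Over 2 probes each, Hs2st1 ran from -0.20 to 0.03 and Glce from -0.24 to -0.01. With median centring, 7 genes of this list were called in place of 11, and 8 within slide 1, where the median was 0.10.

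The list of shedding, processing and cytoplasmic partners held 16 tested genes of 20, of which 9 rose, 3 fell and 4 did not pass, with a median of 0.24 (0.22 within slide 1). Notum, a secreted carboxylesterase that inactivates Wnt proteins and was first described as releasing glypicans, had the largest rise. It read 166, 154 and 149 in the BV arrays and 533, 573 and 660 in the IRF7 arrays, without overlap. The rise was 1.71 (SE 0.049, limma adjusted p = 5e-06), with 1.73 within slide 1. A second Notum probe, above background on 1 BV array, differed by 1.77.

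The proteases of this list changed in both directions. The proprotein convertase Pcsk7 rose by 0.76 (SE 0.031, limma adjusted p = 1.45e-05), whereas Furin, of the same family, fell by 0.52 (SE 0.039, adjusted p = 0.000127). The matrix metalloproteinase Mmp3 rose by 0.75 (SE 0.040, limma adjusted p = 3.53e-05), and Adamts1, an extracellular protease of proteoglycan cores, rose by 0.61 (SE 0.035, adjusted p = 4.59e-05). The cytoplasmic partners of the syndecan tail differed less, with Sdcbp (syntenin) at 0.20, Gipc1 at 0.27 and Prkca at 0.39, all 3 called. With median centring Sdcbp (0.17) and Gipc1 (0.23) were no longer called, while Prkca was. These partners were chosen for naming after their values were seen.

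Of the other proteoglycans, 7 of 8 listed genes were tested, of which 3 rose, 2 fell and 2 did not pass, with a median of 0.32. Nrp1 (neuropilin 1), a co-receptor that can carry a glycosaminoglycan chain, rose by 0.93 (SE 0.070, limma adjusted p = 0.000133). Agrn (agrin), a secreted heparan sulfate proteoglycan, rose by 0.84 (SE 0.044, adjusted p = 3.57e-05), and the hyaluronan receptor Cd44 rose by 0.60 (SE 0.041, adjusted p = 9.08e-05). Srgn (serglycin), the proteoglycan of secretory granules, fell by 0.68 (SE 0.046, limma adjusted p = 8.39e-05). With normexp Srgn was at -0.27 and Nrp1 at 0.53, while Agrn (0.76) and Cd44 (0.54) changed less, and each was still called. Col18a1, a basement membrane collagen with heparan sulfate chains, was at -0.16 (SE 0.036, adjusted p = 0.00983), a call lost within slide 1. It was 0.03 without scaling between arrays. Cspg4, a chondroitin sulfate proteoglycan, was above background in the IRF7 cells only, at least 1.07-fold higher there, and did not pass the test. The list's median was 0.04 within slide 1. Both medians, 0.32 and 0.04, are the value of Cspg4 itself, which rests on BV signals below background. With only probes well above background on all 6 arrays, 6 genes of the list were tested and the median was 0.35.

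The list of chondroitin and dermatan sulfate synthesis, the chains that syndecans can carry beside heparan sulfate, was divided. Of 13 tested genes of 16, 5 rose, 4 fell and 4 did not pass, and the median was 0.02. Csgalnact1, which starts chondroitin chains, rose by 0.99 (SE 0.050, limma adjusted p = 3.2e-05), from signals of 5698, 4624 and 4677 to 10719, 11072 and 12209. Chpf, a chondroitin polymerizing factor, rose by 0.42 (SE 0.035, adjusted p = 0.000178), and the uronyl sulfotransferase Ust rose by 0.54 (SE 0.052, adjusted p = 0.000337). The dermatan sulfate epimerase Dse fell by 0.54 (SE 0.062, limma adjusted p = 0.000702), and Chst15, a sulfotransferase that adds a further sulfate to chondroitin sulfate, was at -0.53 (SE 0.160, adjusted p = 0.0315). The Chst15 call was lost when any array but BV replicate 3 was left out. A second Ust probe, at the edge of detection, differed by -0.30, and the mean of the Ust probes was 0.12.

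Fibroblast growth factors need heparan sulfate to bind their receptors. Of 8 tested genes of 11 listed, 1 rose, 1 fell and 6 did not pass, with a median of 0.03, and 4 were called within slide 1. Fgf1 read 595, 482 and 534 in the BV arrays and 169.8, 204 and 184 in the IRF7 arrays. It fell by 1.73 (SE 0.068, limma adjusted p = 1.34e-05) and was at -1.78 within slide 1. A second Fgf1 probe differed by -1.69. Fgf18 rose by 0.89 (SE 0.072, limma adjusted p = 0.000167), from 137, 109 and 113 to 244, 272 and 247. None of the receptors Fgfr1, Fgfr2, Fgfr3, Fgfr4 and Fgfrl1 passed by the probe that stood for it.

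**Figure D4:**
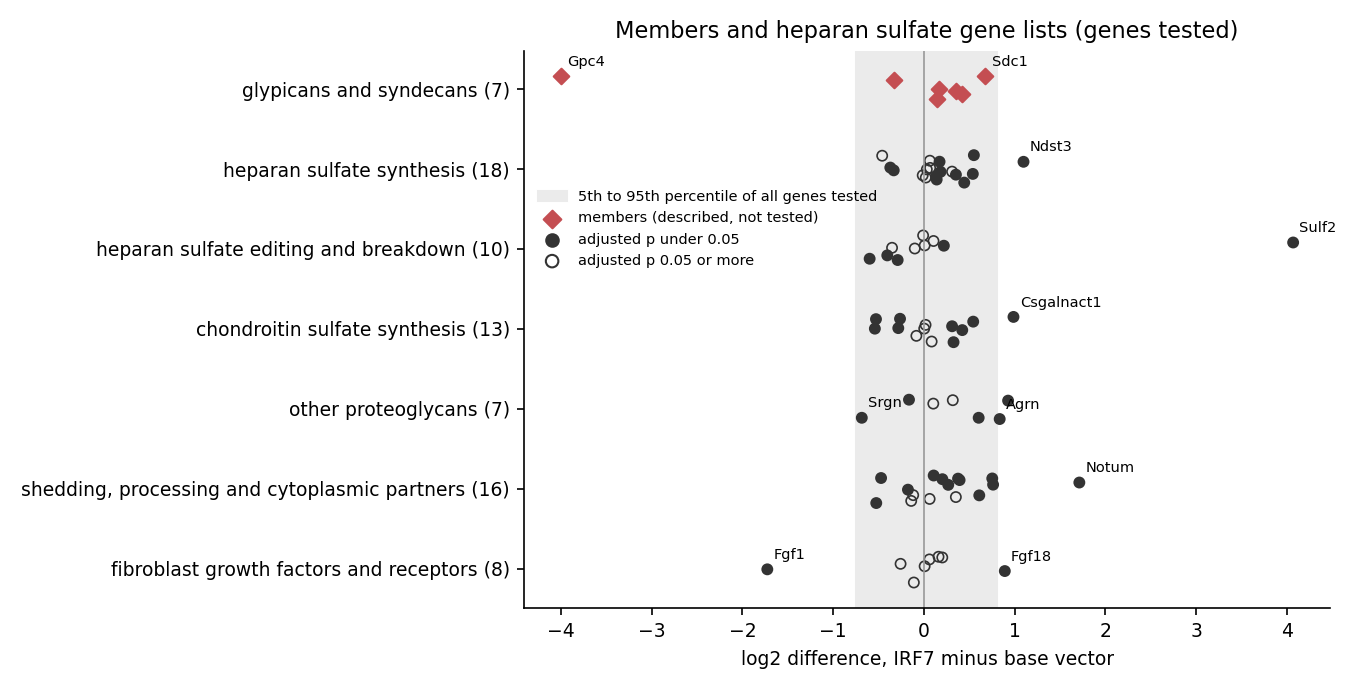
Log2 difference, IRF7 minus base vector, of each tested gene by list (circles, filled where the adjusted p was under 0.05) and of the 7 measured glypicans and syndecans (diamonds); the number of genes is in brackets and grey marks the 5th to 95th percentile of all genes tested. Gpc4 at -4.00 and Sulf2 at 4.07 lie farthest out, and most other genes lie within the grey band.

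The neighbourhood of each member was read from the positions in the files. Within 1 Mb of the Gpc4 probe, 4 genes were tested, and none fell. Mbnl3, a splicing regulator, was at 0.19 (SE 0.067, limma adjusted p = 0.0569), and the clone NAP071025-1 was at -0.02 (adjusted p = 0.862). Phf6, a chromatin protein, rose by 0.33 (SE 0.028, limma adjusted p = 0.000215) and the purine salvage enzyme gene Hprt rose by 0.63 (SE 0.040, adjusted p = 6.97e-05). The Gpc3 probe lies 219 kb from that of Gpc4 and was not above background. From the Gpc4 probe, NAP071025-1 lay at 111 kb, Phf6 at 903 kb and Hprt at 968 kb, and Mbnl3 lay at -923 kb, on the other side. The Gpc4 difference was thus not shared by these genes, of which only NAP071025-1 lay near. Whether other sequence close to Gpc4 differed was not measured.

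For comparison with the counts that follow, 4954 of all 15414 genes tested rose and 4475 fell. Around Sdc2, 3 tested genes lay within 1 Mb and all 3 rose, among them Cpq, a plasma peptidase, by 0.97 (limma adjusted p = 1.2e-05). Around Sdc4, 37 genes were tested, of which 6 rose and 21 fell, with a median of -0.19. Sdc4 itself was at -0.33 by its brighter probe and at -0.05 by the other. Whether its difference goes with that of its neighbours was not tested. Around Sdc1, 1 of 10 tested genes rose and 3 fell, with a median of 0.01. Around Sdc3, 7 of 19 rose and 6 fell, with a median of 0.09.

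**Figure D5:**
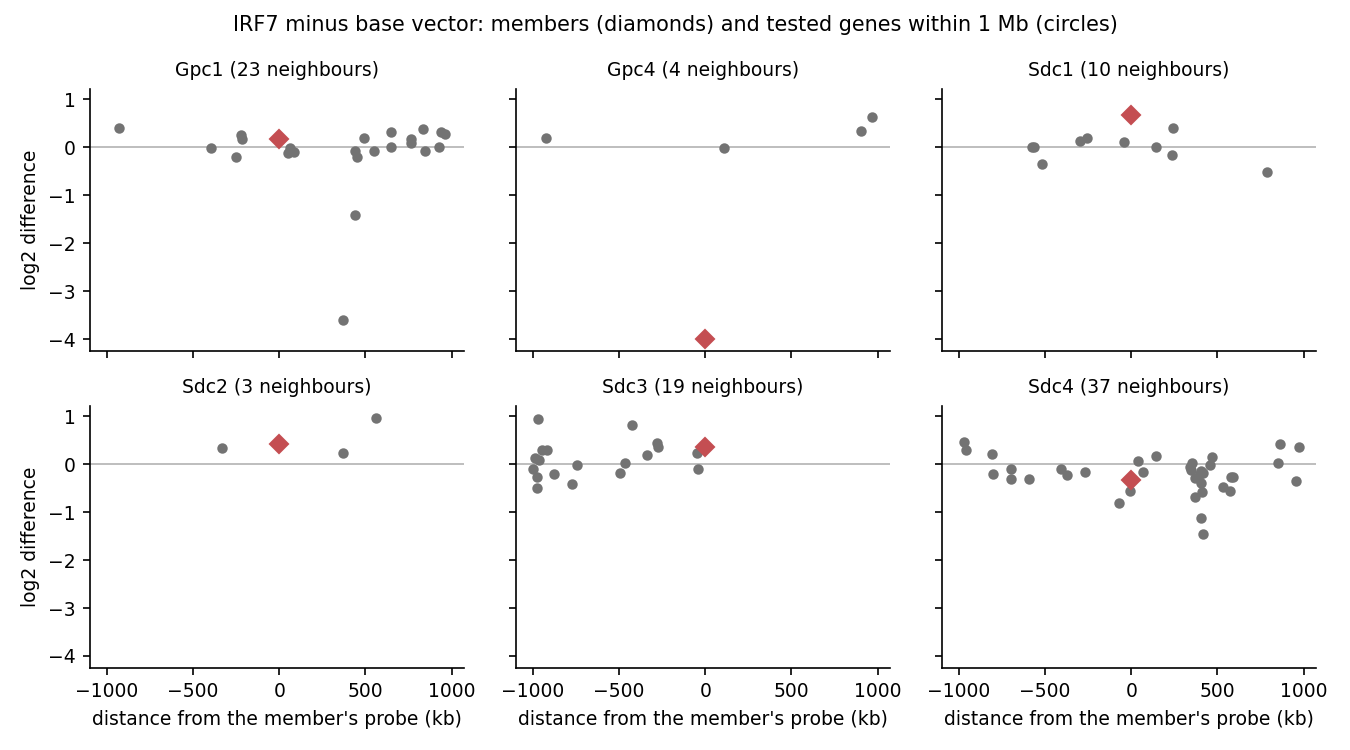
Log2 difference, IRF7 minus base vector, of tested genes within 1 Mb of a member (grey circles) against their distance from the member's probe in kb, with the member at 0 (red diamond). Gpc4 at -4.00 has 4 neighbours between -0.02 and 0.63, while most of the 37 neighbours of Sdc4 lie below 0.

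The genes whose pattern over the 6 arrays was most like that of Gpc4 were sought by the root mean square difference of their deviations from their own mean log2 level, among all genes tested. The closest was Trp53i11, a p53-inducible membrane protein gene, with 0.119 and a difference of -3.92 (SE 0.060). Lama4, a laminin chain, followed with 0.132 and -3.91 (SE 0.074). The next 3, Pipox (0.148), Ogn (0.203) and Crocc2 (0.209), were below background in all IRF7 arrays and were at least 4.10-fold, 11.2-fold and 2.94-fold lower there. Ogn (osteoglycin) is itself a small leucine-rich proteoglycan, and Crocc2 lies 371 kb from Gpc1. Since these genes were picked for their likeness to Gpc4, their differences are a description.

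Since the introduced protein is a DNA-binding factor, the 250 bases before the gene start of the members were read from the RefSeq promoter table (build GRCm38.p6, a different build from that of the arrays). It holds 7 of the 10 members (Gpc2, Gpc3, Gpc4, Gpc5, Sdc1, Sdc3 and Sdc4). Below are those of Gpc4 (chrX:52164924-52165173, minus strand), Sdc1 (chr12:8771146-8771395, plus strand) and Sdc4 (chr2:164443189-164443438, minus strand), the members with the lowest, the highest and the only other negative difference. Each is written 5′ to 3′ in the direction of the gene. Capitals mark the GC box, GGGCGG or its reverse complement CCGCCC.
Gpc4: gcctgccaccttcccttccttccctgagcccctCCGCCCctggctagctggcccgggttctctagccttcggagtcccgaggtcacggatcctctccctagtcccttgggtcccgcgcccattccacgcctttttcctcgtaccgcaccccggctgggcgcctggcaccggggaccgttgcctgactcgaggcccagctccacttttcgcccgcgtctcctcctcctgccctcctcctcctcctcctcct
Sdc1: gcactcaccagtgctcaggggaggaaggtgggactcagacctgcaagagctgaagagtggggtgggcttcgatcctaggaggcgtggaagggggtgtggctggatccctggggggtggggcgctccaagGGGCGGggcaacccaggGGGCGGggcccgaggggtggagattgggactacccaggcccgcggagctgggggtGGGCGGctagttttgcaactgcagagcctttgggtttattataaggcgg
Sdc4: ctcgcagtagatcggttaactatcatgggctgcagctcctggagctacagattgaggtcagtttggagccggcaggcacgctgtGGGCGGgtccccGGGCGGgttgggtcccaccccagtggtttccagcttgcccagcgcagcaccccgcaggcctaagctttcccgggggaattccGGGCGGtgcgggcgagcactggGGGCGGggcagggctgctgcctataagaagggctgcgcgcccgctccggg

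The core of the interferon regulatory factor site was searched as AANNGAAA on both strands. It matched in 21.3% of the 32851 promoters of the table over the same 250 bases, and among the 7 members in Gpc5 only, a gene not above background here. The STAT palindrome TTCNNNGAA matched in 7.02% of promoters and in none of the 7 members. The GC box matched in 32.7% of promoters and in all 7 members, with 1 match in Gpc4 and Gpc5, 3 in Gpc2, Gpc3, Sdc1 and Sdc3 and 4 in Sdc4. The GC content of the Gpc4 stretch was 68.4%, and the median of all promoters was 52.4%. The 3 motifs do not overlap one another in these stretches, and a match or its absence in this window says nothing about whether the factor binds there.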

How the data were processed

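Total RNA of 6 cultures was labelled with Cy3 and hybridised to single-colour Agilent arrays, 1 per culture. The submitters' processing notes name Agilent Feature Extraction 9.5.3.1 for reading the scans. Per the file headers, the deposited files hold a linear intensity for each spot after background subtraction and detrending within the array (the processed signal), beside its raw mean and background intensity and its flags for detection and saturation. The authors' value table was identical to that processed signal (difference 0), so it served as the unscaled alternative.

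From these values, 1639 control spots and 111 to 121 outlier spots per array were left out, spots of a probe were averaged, and levels were log2 processed signals from which the array's own 75th percentile was subtracted. Of 41174 probes, 23518 passed the scanner's flag for signal well above background on 3 or more of the 6 arrays. The brightest stood for each of 15414 genes. Names came from the accession (22951 probes), symbol (6659) or older symbol (3109), and 8455 kept the files' name. Groups were compared two-sided with lmFit and eBayes (limma 3.58.1, R 4.3.3; 4 residual and 1.63 prior degrees of freedom), with Benjamini-Hochberg adjustment at 0.05, checked on simulated data. Standard errors are from this fit, or from the same fit over probes for second probes. A gene below background in a group is given as a bound, against the higher of its own signal and each array's lowest signal above background.

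The members and lists were chosen with earlier results of these data known. The naming rule took all members, in each list up to 5 called genes with the largest difference measured in both groups and every gene measured in 1 group only, the tested neighbours of Gpc4 within 1 Mb, the 5 genes most like Gpc4, and Irf7. Marker lists covered epithelial, fibroblast, endothelial, leukocyte, and plasma and B cells. Of 5 endothelial markers 1 was above background on at least 1 BV array and 2 on at least 1 IRF7 array, and of 5 leukocyte markers 2 and 3. The values of 2 genes of these lists are not reported here. The alternatives were quantile normalization, median centring, no scaling, normexp with an offset of 50, no filter or a filter on all 6 arrays, the mean of a gene's probes, a robust eBayes with trend, slide as a block (fixed or random), the arrays of slide 1, a block for the replicate number, and leaving out each array. Figures were drawn with Python 3.11.15, pandas 2.3.3 and matplotlib 3.10.9.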

Additional observations from a re-analysis of the deposited data

How the results depend on the processing

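The differences of Gpc4, Sdc1, Sdc2, Sdc3, Sdc4 and Gpc1 kept their sign under all 18 alternatives, and that of Gpc6 under 12 of the 17 in which it had a value. Gpc4 ranged from -4.06 to -3.65. The count of members at least 2-fold apart was 1, and 1 to 2 as each array was left out, with 2 without IRF7 replicate 1 through Gpc6. The genes called numbered 9429, against 6204 with median centring and 14534 of 27670 tested with no filter on dim probes. Of the calls, 52.5% were higher in the IRF7 cells, 79.1% without scaling between arrays and 33.0% with no filter on dim probes. The heparan sulfate synthesis list had 7 called genes with median centring in place of 11. The growth factor list had 4 within slide 1 in place of 2. Col18a1 turned to 0.034 without scaling between arrays; the cause was not tested. Over 838 values of the 47 genes followed, called genes outside the family lost their call 27 times and reversed once, in Col18a1. Changes of sign in genes that were not called, such as Gpc6, are not in this count. Lost calls of the members are not in it either, and Sdc4 passed under 17 of the 18 alternatives. Samples with the same replicate number did not clearly deviate together (correlations 0.045, 0.175 and 0.229), although every sample correlated best with its own number; with the replicate number as a block 9780 genes were called. Precision is limited by the 3 arrays per group, and more so for dim probes such as that of Gpc6 (SE 1.19).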

Other observations

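Some genes of the lists gave different differences by different probes. Of the Fgfr1 probes that passed the filter, the differences ran from -0.84 to 0.01, although the probe that stood for the gene did not pass the test. Those of Chpf2, a chondroitin polymerizing factor, ran from -0.31 to 0.09. By contrast, the second probes of Sulf2, Notum, Fgf1, Agrn and Adamts1 had the sign of the first. The probes were not aligned to transcripts here, so which isoforms they read is unknown.

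Among the marker genes, the keratin Krt7 was higher in the IRF7 cells by 2.63 in log2 terms (limma adjusted p = 1.12e-06) and the adhesion molecule Epcam by 1.2 (adjusted p = 0.0017), while Krt8 differed by 0.15 (adjusted p = 0.00833), and Krt18 (-0.06) and Cdh1 (0.04) did not pass. The epithelial marker Cldn3 went the other way, at -0.29 (limma adjusted p = 0.00436). Krt14 was at -0.21 and did not pass. The summed signal of the 10 epithelial markers, before scaling between arrays, was 394035 to 456251 in the BV arrays and 511194 to 566680 in the IRF7 arrays. Most of it came from Krt8 and Krt18, which differed little after scaling. The 75th percentile of the arrays was itself higher in the IRF7 group, at 1238 to 1395 against 1100 to 1236, so the sums are not a measure of a rise.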
